A study of Homo sapiens with 6 samples.

Results

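The matrix metalloproteinase (MMP) genes MMP1, MMP2, MMP3, MMP7, MMP9, MMP13 and MMP14 and the genes of their tissue inhibitors, TIMP1, TIMP2 and TIMP3, were examined in PC-3 cells, an established human prostate cancer cell line. These 10 genes, of 64253 in each count table, were picked by symbol with the differences between the groups already known, so their own differences are given below as a description and without a test. RNA was sequenced from 3 libraries of PC-3 cells carrying a lentiviral shRNA against CdGAP (shCdGAP) and 3 libraries of PC-3 cells carrying a control shRNA (shCon). The CdGAP-depleted cells had been selected with puromycin. CdGAP, encoded by ARHGAP31, is a GTPase-activating protein for Rac1 and Cdc42. The methods describe CdGAP-depleted PC-3 cells as picked single-cell clones and do not say so of the control cells, and the clone that was sequenced is not named. What belongs to the clone and what belongs to loss of CdGAP therefore cannot be told apart. These are bulk libraries, in which fewer cells expressing a gene and less RNA per cell cannot be told apart either.

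MMPs are zinc-dependent endopeptidases that cut the proteins of the extracellular matrix. Most are secreted as inactive proenzymes that need cleavage of a propeptide, and MMP14 is anchored in the plasma membrane. TIMPs bind the active site of MMPs and block it. TIMP2 has a further role, since a complex of MMP14 and TIMP2 at the cell surface captures proMMP2, which a free MMP14 molecule then activates. In prostate and other carcinomas, MMPs are known for their part in invasion and in remodelling of bone.

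The libraries held 33182796 to 43154039 counted reads each. ARHGAP31 had 1072, 1181 and 926 reads in CdGAP-depleted cells and 2472, 2557 and 1923 in control cells, which is 54.7% lower in CPM (edgeR, adjusted p = 8.75e-08). The paper reports a larger reduction of CdGAP mRNA and protein, by qPCR and immunoblot, for a CdGAP-depleted PC-3 clone. Whether that clone was the one sequenced is not stated. The epithelial markers KRT8 and KRT18 were abundant in both groups. The shCdGAP replicate 2 library stood apart from its group. Its log2 CPM values had an SD of 0.153 around the group means over 10282 genes, against 0.0771 and 0.0942 in shCdGAP replicates 1 and 3 and 0.0419 to 0.0518 in the shCon libraries. Where leaving it out moved a member's log2 difference by more than its standard error, or another named gene's fold by over 1.5 times, the value without it is given. The value for MMP13, which moved by less than its standard error, is given as well.

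The collagenases MMP1 and MMP13, which cleave fibrillar collagens, were both higher in CdGAP-depleted cells. MMP1 (ENSG00000196611, chr11:102789920-102798160, minus strand, GRCh38) had 771, 698 and 581 reads in shCdGAP replicates 1, 2 and 3, and 76, 76 and 62 reads in the shCon replicates. In CPM (each count as parts of a TMM-adjusted library size of 1000000), these were 17.3 ± 1.54 against 1.83 ± 0.0410 (SD, n = 3), a ratio of 9.46. The log2 difference was 3.24 (SE 0.100). MMP13 (ENSG00000137745, chr11:102942995-102955734, minus strand) had 6520, 4658 and 5596 reads in CdGAP-depleted cells and 103, 131 and 76 in control cells. Its level was 143.5 ± 31.7 CPM against 2.62 ± 0.426 CPM (SD, n = 3), a ratio of 54.8 and a log2 difference of 5.76 (SE 0.243). For both genes the lowest shCdGAP library lay far above the highest shCon library. MMP13 was lower in shCdGAP replicate 2 than in the other 2 libraries of the group, and its log2 difference without that library was 5.92.

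The gelatinases MMP2 and MMP9, which degrade denatured collagen and basement membrane collagen, were also higher in CdGAP-depleted cells but at very different levels. MMP2 (ENSG00000087245, chr16:55389700-55506691, plus strand) had 2523, 4049 and 2079 reads in CdGAP-depleted cells and no read in any of the 3 shCon libraries. Its CPM values were 62.2, 93.0 and 60.5, with a mean of 71.9 ± 18.3 (SD, n = 3). Against the limit of 3 reads per library that a count of 0 allows, MMP2 was at least 924-fold higher. MMP2 was thus not detectable in the control libraries at this depth and present in every CdGAP-depleted library, most of all in replicate 2. MMP9 (ENSG00000100985, chr20:46008908-46016561, plus strand) had 22, 23 and 15 reads against 4, 3 and 3. Summed over libraries, 60 reads stood against 10, a depth-adjusted ratio of 5.94 with an exact 95% counting interval of 3.02 to 13.01. MMP9 stayed near 0.502 CPM even in CdGAP-depleted cells, so its groups did not overlap but its counts were few. Intervals and floors cover counting error only.

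The stromelysin MMP3, which cuts proteoglycans and laminin and activates other proMMPs, had 54, 30 and 45 reads in CdGAP-depleted cells and 0, 4 and 3 in control cells (ENSG00000149968, chr11:102835801-102843803, minus strand). The sums of 129 and 7 reads gave a ratio of 18.2 with an exact 95% counting interval of 8.60 to 46.2. The groups did not overlap, but the size rested partly on the library without reads, since the log2 difference of 4.13 (SE 0.563) was 3.50 without shCon replicate 1. Matrilysin, MMP7, a small MMP made by epithelial cells (ENSG00000137673, chr11:102520508-102530753, minus strand), had 127, 129 and 104 reads against 17, 27 and 20. In CPM this was 3.04 ± 0.0861 against 0.550 ± 0.127 (SD, n = 3), a ratio of 5.53 and a log2 difference of 2.47 (SE 0.183). The 3 shCdGAP libraries lay close together and well above all shCon libraries. Without shCon replicate 1, its lowest library, the log2 difference of MMP7 was 2.26.

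The membrane-type MMP14 was already abundant in control cells. MMP14 (ENSG00000157227, chr14:22836557-22849027, plus strand) had 7698, 10485 and 6625 reads in CdGAP-depleted cells and 3144, 3304 and 2619 in control cells. The level was 208 ± 28.6 CPM against 77.5 ± 2.27 CPM (SD, n = 3), a ratio of 2.68. Its log2 difference of 1.42 (SE 0.0909) was the smallest among the 7 MMP members, and it was 1.30 without shCdGAP replicate 2, the highest library.

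The 3 inhibitor genes differed from each other. TIMP1 (ENSG00000102265, chrX:47582313-47586789, plus strand) had 5319, 6641 and 4604 reads in CdGAP-depleted cells and 5930, 6321 and 4675 in control cells, or 139 ± 11.6 against 144 ± 4.82 CPM (SD, n = 3). The groups of TIMP1 overlapped, with a log2 difference of -0.05 (SE 0.0588) that was -0.13 without shCdGAP replicate 2. TIMP2 (ENSG00000035862, chr17:78852977-78925387, minus strand) had 12982, 17860 and 10384 reads against 7801, 7701 and 6240, or 344 ± 57.8 against 186 ± 3.20 CPM (SD, n = 3). The TIMP2 groups did not overlap, with a ratio of 1.85 and a log2 difference of 0.89 (SE 0.109), which was 0.74 without shCdGAP replicate 2. TIMP3, an inhibitor that binds to the matrix (ENSG00000100234, chr22:32801701-32863043, plus strand), had 0 reads in all 6 libraries. A count of 0 allows up to 3 reads per library, or 0.0695 to 0.0904 CPM. SYN3, the gene in whose bounds TIMP3 lies, also had no read.

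**Figure D1:**
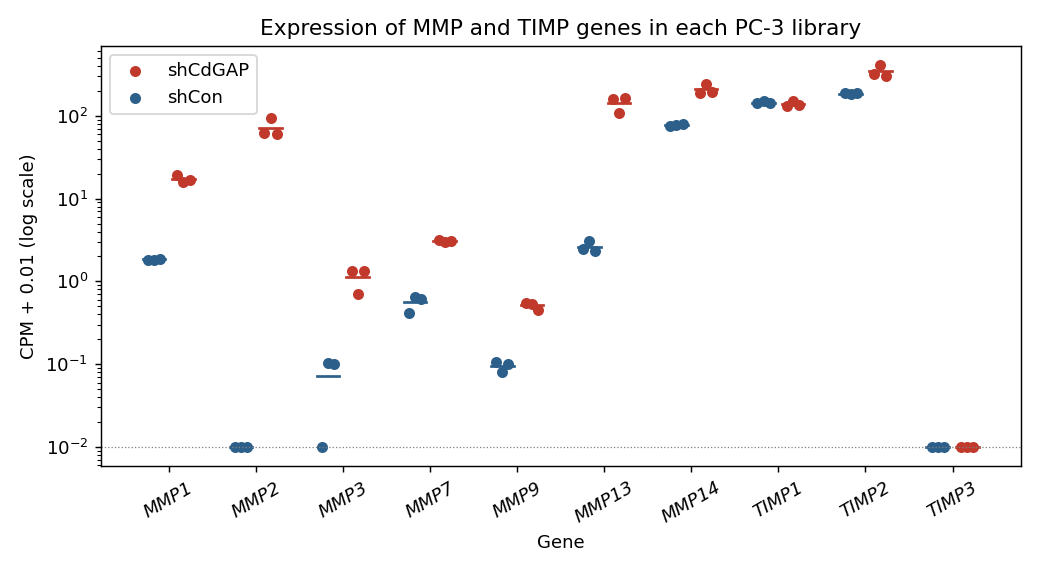
Level of each of the 10 genes in each library, as CPM + 0.01 on a log axis; points are the 3 libraries per group, bars are group means and the dotted line marks 0 reads. The 7 MMP genes show separate groups, TIMP1 overlaps, and TIMP3 lies on the line in all 6 libraries, as does MMP2 in shCon.

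Of the 10 genes, 9 passed edgeR's expression filter, MMP2, MMP3 and MMP9 only through the shCdGAP libraries in which they are high. A gene was called when its edgeR adjusted p was under 0.01 and its absolute log2 difference above 1. By this rule 7 of the 10 genes were called higher and 0 lower, where 8.56% of all 16439 tested genes were called higher, 4.19% lower and 12.8% either way. The groups did not overlap for 8 of the 9 tested genes, all 8 higher in shCdGAP, against 67.1% of all tested genes (34.4% higher and 32.7% lower). Since these differences chose the genes, nothing further is read from the counts. The median log2 difference of all tested genes was 0.01.

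**Figure D2:**
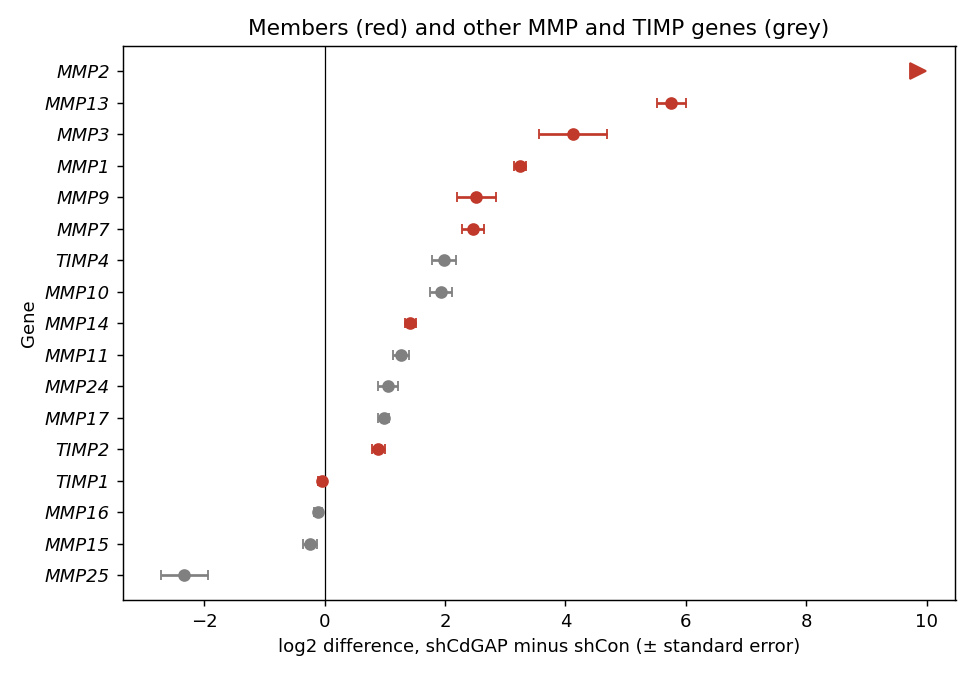
Log2 difference (shCdGAP minus shCon) with its standard error (bars) for the 9 tested members (red) and 8 other tested MMP and TIMP genes (grey); the arrowhead of MMP2 is a lower bound, drawn at 924-fold. MMP13 lies at 5.76, TIMP1 near 0 and MMP25 at -2.33.

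Set on a scale that corrects for gene length (TPM, the share of transcripts, from the deposited lengths), the order of the members changed between the groups. In shCon cells TIMP1 was highest at 374 ± 13.4 TPM, followed by TIMP2 at 132 ± 1.91 and MMP14 at 69.4 ± 2.00 (SD, n = 3). The next 2, MMP1 at 3.71 ± 0.0740 and MMP13 at 3.69 ± 0.611 TPM, did not differ beyond their spread. MMP7 followed at 0.946 ± 0.218 TPM, and MMP9 at 0.147 ± 0.0218 and MMP3 at 0.121 ± 0.105 were again within their spread, above MMP2 and TIMP3 at 0. In control cells, therefore, the inhibitors and MMP14 made up nearly all transcripts of the 10 genes. In shCdGAP cells TIMP1 stood at 365 ± 33.4, TIMP2 at 247 ± 43.8, MMP13 at 204 ± 43.6 and MMP14 at 188 ± 27.5 TPM (SD, n = 3). Among these, TIMP2 and MMP13 differed by less than their SDs combined, and so did MMP13 and MMP14. MMP2 at 58.9 ± 15.5 and MMP1 at 35.5 ± 3.09 TPM came next, well above MMP7 at 5.28 ± 0.141, MMP3 at 2.18 ± 0.705 and MMP9 at 0.868 ± 0.106.

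The summed level of the 7 MMP genes was 499.6, 490.8 and 493.6 TPM in shCdGAP replicates 1, 2 and 3 and 75.06, 79.72 and 79.15 TPM in shCon replicates 1, 2 and 3. The 3 TIMP genes summed to 573.1, 699.6 and 561.3 TPM and to 498.3, 519.1 and 499.5 TPM. Transcripts of these 3 inhibitors outnumbered those of these 7 proteases in every library, but far less so in CdGAP-depleted cells. The MMP to TIMP ratio was 0.818 ± 0.101 against 0.154 ± 0.00399 (SD, n = 3). The sums hold only members, which were picked with their differences known, so ratios and shares over all MMP and TIMP genes would differ. Left out are, for example, MMP16 (13.3 TPM in shCdGAP and 14.3 in shCon cells) and MMP17 (15.9 and 7.98 TPM). The ratio was 0.872, 0.702 and 0.879 in the single shCdGAP libraries, lowest in replicate 2. MMP14 made up 89.0 ± 0.716% of the MMP sum in shCon cells and 38.02 ± 5.85% in shCdGAP cells, where MMP13 held 41.2 ± 8.57% and MMP2 11.9 ± 3.23%. MMP13 held 4.73 ± 0.717% in shCon cells. Within the MMP2 activation complex, MMP14 stood to TIMP2 as 0.765 ± 0.0352 in shCdGAP and 0.527 ± 0.0166 in shCon cells, and MMP2 to TIMP2 as 0.237 ± 0.0197 in shCdGAP cells. TIMP2 to TIMP1 was 0.674 ± 0.0596 against 0.353 ± 0.0171 (SD, n = 3). These are ratios of transcripts, and enzyme activity was not measured in these libraries.

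**Figure D3:**
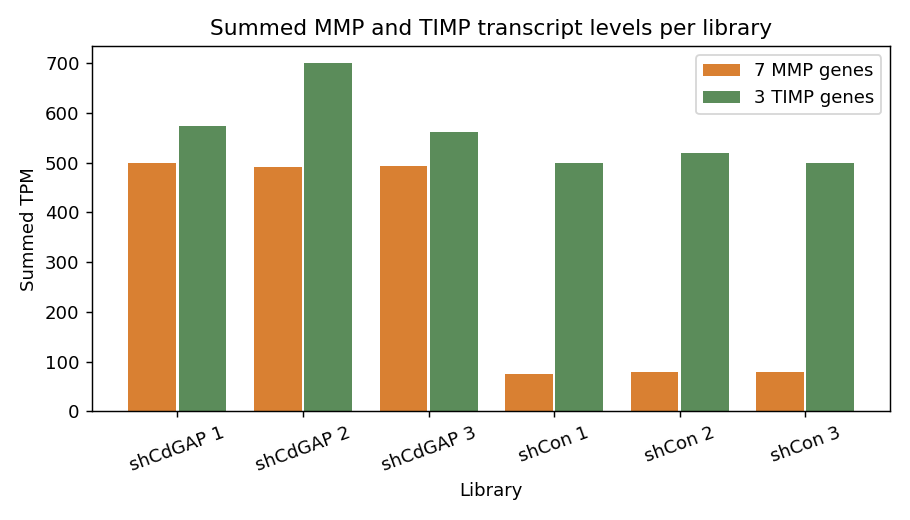
Summed TPM of the 7 MMP genes (orange) and the 3 TIMP genes (green) in each library. The MMP sum is 490.8 to 499.6 TPM in the shCdGAP libraries and 75.06 to 79.72 TPM in the shCon libraries, and the TIMP sum is above the MMP sum in all 6.

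The near-constant MMP sum held opposite deviations of shCdGAP replicate 2. Relative to the group mean of log2 CPM, this library lay higher for MMP2 (0.40), TIMP2 (0.27), MMP14 (0.22) and TIMP1 (0.14). It lay lower for MMP3 (-0.59), MMP13 (-0.40) and MMP1 (-0.11), and close to the mean for MMP7 (-0.04) and MMP9 (0.07). MMP2, MMP14 and TIMP2 were thus highest, and MMP1, MMP3 and MMP13 of chromosome 11 lowest, in the same library, but MMP10 of chromosome 11 was highest there too (3.034, 3.674 and 2.851 CPM in replicates 1, 2 and 3). These deviations are within a single library and have no replicate. In the shCon libraries the deviations of MMP14, TIMP1 and TIMP2 were at most 0.055 in size.

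**Figure D4:**
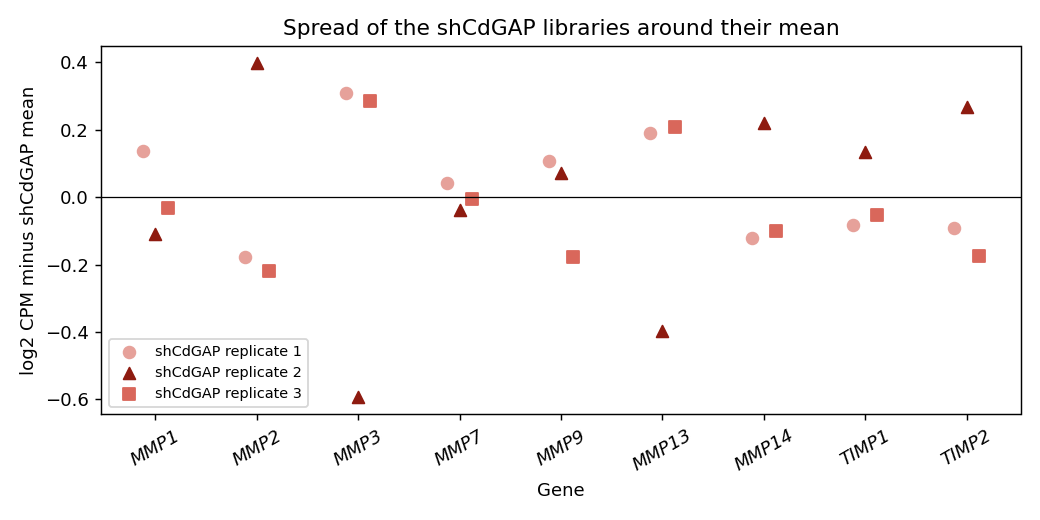
Deviation of each shCdGAP library from the mean log2 CPM of the group, for the 9 members with reads. Replicate 2 (triangles) lies at 0.40 for MMP2 and at -0.59 for MMP3, while replicates 1 and 3 lie close together for most genes.

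MMP1, MMP3, MMP7 and MMP13 lie in the MMP gene cluster of chromosome 11, which also holds MMP8, MMP10, MMP12, MMP20 and MMP27. The 9 genes span 435.2 kb. All 5 that passed the expression filter, the 4 members and MMP10, were called higher, where 8.56% of all tested genes were. Their log2 differences ran from 1.94 to 5.76. The 4 members were picked with these differences known, and MMP3 passed the filter only through shCdGAP, so nothing is read from this count. The 4 untested genes had at most 3 reads in any library. MMP10, another stromelysin and the tested gene of this cluster that is no member, had 123, 160 and 98 reads in CdGAP-depleted cells and 28, 38 and 31 in control cells. It rose with a log2 fold change of 1.94 (SE 0.183, edgeR, adjusted p = 2.41e-05). Of the 34 other genes within 500 kb of the cluster, 10 were tested and 0 were called by edgeR or DESeq2, against 12.8% of all tested genes by edgeR. Their log2 fold changes ran from -1.07 to 0.53. By edgeR 8 of them had an unadjusted p under 0.05, and 2 passed an adjusted p of 0.01 alone, 1 higher and 1 lower. The median over the tested genes of chromosome 11 was 0.07. Of the 5 tested cluster genes, MMP10 alone is no member, but its list was also chosen with earlier results of these data known.

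The sequences upstream of 4 genes are shown because they contrast 2 genes of this cluster with MMP14 and with the unread TIMP3. They run 5′ to 3′ on the gene's strand, come from RefSeq (GRCh38.p14) and end before the gene start. Capitals mark TGANTCA (the AP-1 motif), TATAAA (the TATA box) and GGGCGG (a GC box), each searched on both strands. The regions are chr11:102530754-102530997 (minus strand) for MMP7, chr11:102780629-102780878 (minus strand) for MMP10, chr14:22836335-22836556 (plus strand) for MMP14 and chr22:32801455-32801700 (plus strand) for TIMP3.
MMP7: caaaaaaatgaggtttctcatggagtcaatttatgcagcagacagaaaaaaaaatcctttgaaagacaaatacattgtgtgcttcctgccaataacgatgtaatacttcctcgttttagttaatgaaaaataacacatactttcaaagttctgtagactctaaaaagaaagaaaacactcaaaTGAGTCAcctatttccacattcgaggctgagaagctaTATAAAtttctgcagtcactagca
MMP10: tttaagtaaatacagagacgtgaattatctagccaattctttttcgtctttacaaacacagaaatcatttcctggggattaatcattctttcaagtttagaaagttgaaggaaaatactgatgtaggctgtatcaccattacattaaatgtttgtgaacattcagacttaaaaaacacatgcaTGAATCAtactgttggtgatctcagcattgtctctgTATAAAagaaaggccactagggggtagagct
MMP14: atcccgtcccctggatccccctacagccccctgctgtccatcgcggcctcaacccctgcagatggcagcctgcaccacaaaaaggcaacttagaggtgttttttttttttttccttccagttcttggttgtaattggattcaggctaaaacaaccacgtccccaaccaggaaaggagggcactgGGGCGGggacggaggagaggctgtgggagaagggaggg
TIMP3: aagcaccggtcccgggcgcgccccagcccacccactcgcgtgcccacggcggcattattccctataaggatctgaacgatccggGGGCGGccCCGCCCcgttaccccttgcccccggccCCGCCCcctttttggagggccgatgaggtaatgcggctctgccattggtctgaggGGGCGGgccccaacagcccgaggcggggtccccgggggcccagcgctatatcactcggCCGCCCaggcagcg
MMP7 and MMP10 both hold an AP-1 motif whose first base is at -67 from the RefSeq start and a TATA box, at -30 and -31. Neither motif was found in the windows of MMP14 or TIMP3, which hold 1 and 5 GC boxes. Among 35116 windows of 300 bases, 250 before and 50 after a RefSeq start, 7.71% hold the AP-1 motif, 11.5% the TATA box and 45% a GC box. The G and C content of the window was 35.7% for MMP7 and 36.3% for MMP10, 55% for MMP14 and 72.7% for TIMP3. In the same order the windows held 4, 2, 10 and 31 CpG dinucleotides. A match to these letters is a description of the sequence and does not show that a factor binds there. Windows were matched for 4 of the 10 members, the fourth being TIMP1, with 2 GC boxes and neither of the other motifs. They were also matched for MMP11, MMP24 and TIMP4, which were called higher, and for MMP15, which was not. Those hold 4, 3, 1 and 5 GC boxes and neither of the other motifs. The contrast shown is therefore not one between called and uncalled genes.

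MMP2 lies in a stretch of chromosome 16 where few genes had reads. Of 22 other genes within 500 kb, 3 were tested and all 3 were called higher, where 8.56% of all tested genes were. LPCAT2 passed the expression filter only through the shCdGAP libraries, and the genes are few, so nothing is read from this count. LPCAT2, which encodes an acyltransferase of phospholipid synthesis, begins 2.31 kb past the end of MMP2 on the same strand. It had 797, 1220 and 672 reads in CdGAP-depleted cells and 1, 1 and 0 in control cells (edgeR, adjusted p = 1.52e-07). The sums of 2689 and 2 reads gave a ratio of 1330 with an exact 95% counting interval of 367.8 to 10990. LPCAT2 was highest in shCdGAP replicate 2, as MMP2 was. On the other side, IRX5, a homeobox factor at -455.21 kb, rose with a log2 fold change of 2.20 (edgeR, adjusted p = 1.73e-06), and the long noncoding RNA CRNDE, next to IRX5, with one of 1.87 (edgeR, adjusted p = 1.25e-06). Counting was strand-specific by the table headers, but MMP2 and LPCAT2 are on 1 strand and reads running past MMP2 cannot be told apart from those of LPCAT2. The chromosome 16 median was -0.06.

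**Figure D5:**
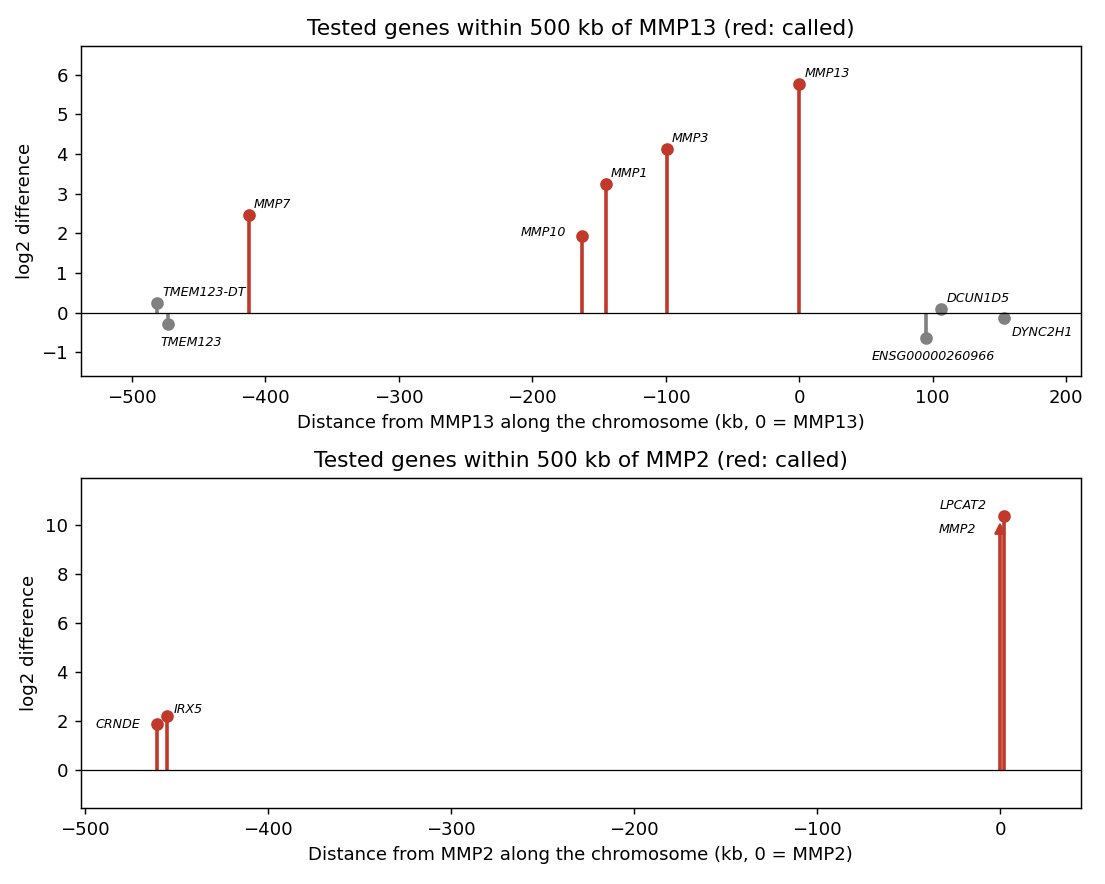
Log2 difference of tested genes by distance, in kb between nearest gene ends, from MMP13 (top) and MMP2 (bottom); red genes were called and grey were not. MMP2 (triangle) is drawn at its lower bound of 924-fold and LPCAT2 at its ratio of summed reads (1330). In the top panel the genes flanking the chromosome 11 cluster lie between -0.64 and 0.25.

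Around MMP9, 2 of 19 tested neighbours were called higher and 0 lower, and around MMP14, 2 of 28 were called higher and 2 lower. Over all members, 91 other genes within 500 kb were tested, of which 8 (8.79%) were called higher and 2 (2.2%) lower. These shares were near the 8.56% and below the 4.19% of all tested genes. The pooled count includes LPCAT2, IRX5, CRNDE and MMP10, described above. Near MMP9, SLC12A5, a chloride cotransporter gene 5.16 kb away, rose by 2.42 on the log2 scale (edgeR, adjusted p = 6.18e-04). CD40, a TNF receptor family gene 101.71 kb away, had no read in the shCon libraries and was at least 3.96-fold higher (edgeR, adjusted p = 5.58e-04). Near MMP14, the amino acid transporter genes SLC7A7 and SLC7A8 were called higher, at 1.496 and 1.155, and AJUBA and ENSG00000276008 lower, at -1.01 and -1.76 on the log2 scale. No gene was called near TIMP1, TIMP2 or TIMP3.

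The genes most like each member in pattern were taken as the 3 with the smallest Euclidean distance over the 6 libraries in centred log2 CPM. A prior count of 2 entered this log2 CPM, which shrinks the differences of genes with few reads. With 6 libraries in 2 groups, the measure mostly ranks genes by the size of this shrunken difference. TMEM233, with at most 1 read in a shCon library, was nearest to MMP13 though its fitted log2 difference was 7.89 against 5.76. For MMP1 they were MAGEA1 (distance 0.13), LAD1 (0.213) and ADAM12 (0.263), and for MMP14 TRIM9 (0.055), DNAJC12 (0.0987) and ANXA6 (0.111). For MMP2 the nearest were DAAM2 (1.23), TSPAN18 (1.96) and LPCAT2 (2.54), of which LPCAT2 is also its neighbour on the chromosome. MMP13 was nearest to TMEM233 (0.282), EPGN (0.738) and BEX1 (0.74), and MMP7 to ARSD (0.296), KCP (0.305) and ZBTB47 (0.326). MMP9 was nearest to PSMB9 (0.19), PGF (0.211) and ARHGEF6 (0.218), and MMP3 to RTL9 (0.718), DYSF (0.915) and XAF1 (0.969).

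The remaining MMP and TIMP genes did not all move in the same direction. Of 17, 8 were tested, 4 were called higher (50%, against 8.56% of all tested genes) and 1 lower (12.5%, against 4.19%), at a median of 1.01 on the log2 scale against 0.01 over all genes. TIMP4, the fourth inhibitor, had 44, 55 and 42 reads in CdGAP-depleted cells and 12, 13 and 10 in control cells. It rose by 1.98 on the log2 scale (SE 0.205, edgeR, adjusted p = 4.24e-05), at a level of 1.19 CPM in CdGAP-depleted cells. MMP11, a stromelysin usually made by tumour stroma, rose by 1.26 (SE 0.131, edgeR, adjusted p = 4.44e-05). The membrane-type MMP24 rose by 1.05 (SE 0.168, edgeR, adjusted p = 6.64e-04), but fell short of the log2 limit of 1 without shCdGAP replicate 1 (0.91) or without shCon replicate 3 (0.94). MMP17, also membrane-anchored, passed the adjusted p alone at 0.98 (edgeR, adjusted p = 3.35e-05). MMP25, another membrane-type MMP, fell from 21, 27 and 18 reads to 6, 6 and 1 (log2 fold change -2.33, SE 0.396, edgeR, adjusted p = 8.98e-04). MMP15 and MMP16, further membrane-type enzymes, had log2 differences of -0.24 and -0.12 (edgeR, adjusted p = 0.101 and 0.150). The 9 untested genes had at most 6 reads in any library.

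The related ADAM and ADAMTS proteases, which shed cell surface proteins or cut proteoglycans, were mixed. Of 30, 19 were tested, with 5 passing an adjusted p of 0.01 higher and 12 lower, against 24.1% and 22% of all genes, and a median of -0.32. By the full rule 2 were called higher (10.5%, against 8.56%) and 4 lower (21.1%, against 4.19%). ADAM12 rose by 3.02 on the log2 scale (edgeR, adjusted p = 1.10e-08), from 236, 239 and 177 reads to 1952, 1876 and 1524, and ADAMTS16 by 1.41 (edgeR, adjusted p = 3.05e-05). ADAMTS19 had 19, 30 and 24 reads in the shCon libraries and none in the shCdGAP libraries, at least 8.21-fold lower (edgeR, adjusted p = 1.67e-04). ADAM8 fell from 286, 303 and 250 reads to 40, 120 and 34 (log2 fold change -2.15, edgeR, adjusted p = 1.55e-03). Without shCdGAP replicate 2, its highest library of the group, the log2 fold change was -2.86. Its call was lost when genes of low counts were not filtered out (edgeR, adjusted p = 0.0131). ADAM28 and ADAMTS7 were called lower at -2.46 and -2.75 on the log2 scale, from at most 21 reads per library, and ADAMTS7 was at -3.45 without shCdGAP replicate 3. The sheddases ADAM9, ADAM10, ADAM15 and ADAM17, all abundant, passed the adjusted p lower, with log2 fold changes from -0.75 to -0.27.

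Genes that activate or restrain MMPs included several serine proteases and convertases that were called higher. Of 25, 21 were tested, with 9 called higher (42.9%, against 8.56% of all tested genes) and 1 lower (4.76%, against 4.19%), the median on the log2 scale being 0.78. ST14 (matriptase, a membrane serine protease that activates other proteases) rose from 75, 88 and 60 reads to 928, 1527 and 779 (log2 fold change 3.82, edgeR, adjusted p = 4.63e-06). PLAT, the tissue plasminogen activator, rose by 2.04 (edgeR, adjusted p = 8.64e-08). The proprotein convertase PCSK5 rose by 1.81 (edgeR, adjusted p = 3.00e-06). FURIN, the convertase known to process proMMP14, had a log2 fold change of -0.45 (edgeR, adjusted p = 9.24e-03); it was chosen for mention after its value was seen. SPOCK1, a testican proteoglycan, rose by 2.18 (edgeR, adjusted p = 2.05e-08). THBS2, a thrombospondin that helps clear MMP2, was called lower on few reads (2, 16 and 4 against 25, 46 and 25, edgeR, adjusted p = 6.80e-03), and the call was lost on leaving out shCdGAP replicate 1 or 3 or any shCon replicate. Its log2 fold change was -2.13, and -3.31 without shCdGAP replicate 2.

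The matrix proteins that MMPs cut changed in both directions. Of 30, 25 were tested, with 6 called higher (24%, against 8.56% of all tested genes) and 5 lower (20%, against 4.19%), and a median of 0.07. Among the fibrillar collagen genes, COL3A1 rose by 3.00 (edgeR, adjusted p = 6.40e-06) and COL1A1 by 1.67 (edgeR, adjusted p = 4.38e-08), and COL5A1 fell by 1.36 on the log2 scale (edgeR, adjusted p = 2.69e-04). The proteoglycan gene BGN had 17, 21 and 10 reads against 3, 2 and 0 (log2 fold change 3.15, edgeR, adjusted p = 1.02e-03), which was 3.76 without shCon replicate 1. COL6A1 and COL6A2, chains of the microfibrillar collagen VI and the most abundant of those called, fell by 1.51 and 1.46 on the log2 scale (edgeR, adjusted p = 2.32e-08 and 1.28e-08). COL4A1 and COL4A2, adjoining genes of chromosome 13 for basement membrane collagens cut by the gelatinases, were also called lower, at -1.30 and -1.06.

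Few genes for transcription factors known from MMP promoters passed the rule. Of 27, 26 were tested, with 1 called higher (3.85%) and 0 lower, below the 8.56% and 4.19% of all genes, at a median of 0.13 on the log2 scale. With an adjusted p of 0.01 alone, 11 of the 26 passed higher and 6 lower, where 24.1% and 22% of all tested genes did. DESeq2 also called 0 lower, and 9 had an unadjusted edgeR p under 0.05 on the lower side. TFAP2C, an AP-2 factor, had 132, 51 and 86 reads in CdGAP-depleted cells and 1, 3 and 0 in control cells, a ratio of summed reads of 66.5 with an exact 95% counting interval of 25.7 to 245.9 (edgeR, adjusted p = 1.57e-04). Its fitted log2 fold change of 5.95 was 7.11 without shCon replicate 2. Of the 7 genes of AP-1, a group set apart after its values were seen, 4 passed the adjusted p higher (24.1% of all tested genes did) and 0 were called by edgeR or DESeq2, with an unadjusted edgeR p under 0.05 for 5. JUN rose by 0.83 on the log2 scale (edgeR, adjusted p = 2.97e-07) and JUND by 0.65 (edgeR, adjusted p = 1.69e-06). FOS had few reads and a log2 difference of -0.52 (edgeR, adjusted p = 0.118). RUNX2, a factor of bone cells known to act on MMP13, had a log2 difference of -0.97 (edgeR, adjusted p = 0.0200). With the replicate number as a block, and also without shCdGAP replicate 2, RUNX2 was called lower.

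Markers of fibroblasts, cells that make many MMPs, moved with the members. Of 10 markers, 8 were tested and 6 were called higher (75%, against 8.56% of all tested genes), 0 lower (against 4.19%), and the list's median was 2.84 on the log2 scale. COL1A1, COL3A1, LUM, PDGFRA, PDGFRB and FAP were higher. The list is dominated by COL1A2, with a log2 difference of -0.04, and its summed level was 354 to 371 CPM in the shCdGAP libraries and 305 to 311 CPM in the shCon libraries. The 2 untested markers, THY1 and DCN, had 0 to 1 and 0 to 5 reads in any library. The part of these genes in the MMP differences was not tested. Epithelial markers summed to 993 to 1237 CPM against 755 to 778. Of these 6, EPCAM and KRT19 were called higher (33.3%, against 8.56% of all tested genes) and 0 lower (against 4.19%). The other 4 did not pass the adjusted p, and the median was 0.19 on the log2 scale. Of 6 endothelial markers 3 were tested and 0 were called by edgeR or DESeq2, against 12.8% of all tested genes by edgeR. By edgeR 0 had an unadjusted p under 0.05. They summed to 5.99 to 13.2 CPM against 10.2 to 11.9, and 3 of 6 were too low to test. None of 6 leukocyte markers had enough reads to be tested.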

How the data were processed

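RNA of 3 shCdGAP and 3 shCon samples of PC-3 cells, described as independent in the methods, was sequenced. The authors deposited raw gene counts, 1 table per sample, from reads aligned to GRCh38 with STAR 2.5.1b (FastQC 0.11.5 for quality). The table headers name featureCounts 1.6.0, Ensembl release 77 and counting of read pairs by strand, and the methods featureCounts 1.4.6 and a single-read kit. Reads that align to several places or to overlapping genes are then left out, which lowers the counts of near-identical copies. The study itself used DESeq2 1.12.3.

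Of 64253 genes, 56105 matched a symbol. Counts were fitted by the quasi-likelihood test of edgeR 4.0.16 in R 4.3.3 (TMM scaling, filterByExpr, robust, unpaired) over all 16439 genes kept, with Benjamini-Hochberg adjustment, limma 3.58.1 and DESeq2 1.42.0 serving alternatives and Python 3.11.15 the tables. A call needed an absolute log2 difference above 1 together with an adjusted p under 0.01. The standard error is the absolute log2 difference divided by the square root of F. TPM used the deposited gene lengths. Counts allow up to 3 reads per library for a count of 0. Intervals of ratios of summed reads are exact binomial at 95%. Totals of 33182796 to 43154039 reads set the precision. The scripts were tested on simulated data.

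The 10 genes and all lists (other MMP and TIMP genes, ADAM and ADAMTS proteases, activators and inhibitors, matrix substrates, transcription factors, markers of epithelium, fibroblasts, endothelium and leukocytes, and genes within 500 kb) were chosen with earlier results of these data known. Named genes are all members, up to 6 called genes per list by absolute log2 difference, the 3 genes nearest each member with an absolute log2 difference above 1 (Euclidean distance over the 6 libraries, average log2 CPM of at least 0), and ARHGAP31. Genes named beyond that were chosen after their values were seen. Some genes that the rule names are not reported here. Pairing was checked by the correlation of deviations from group means between samples of the same replicate number over 10282 genes. It was 0.121, 0.126 and 0.117, each above the limit of 0.1, so the numbers may pair the samples. Other matchings of the numbers were not compared, and the labels do not say what a number marks. The values given are from the unpaired fit, and the replicate block was run as an alternative. Alternatives were other scalings, DESeq2, other filters, the replicate block, a 100 kb window and each library left out in turn.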

Additional observations from a re-analysis of the deposited data

How the results depend on the processing

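Under the 13 alternatives, no result changed direction. The count of members called higher stayed at 7, except for 6 without a filter on low counts (MMP2 was lost, with 2079 to 4049 reads against 0) and 4 with at least 10 reads in every library, where MMP2, MMP3 and MMP9 were not tested. With that filter, transcription factors called higher numbered 0, neighbours 5 higher and 1 lower, other MMP and TIMP genes 0 lower, ADAM and ADAMTS genes 1 lower and activators and inhibitors 0 lower, because fewer genes were tested. A window of 100 kb left 4 neighbours higher and 1 lower, and library-size scaling 1 lower (AJUBA was lost). With the replicate number as a block, 1 transcription factor (RUNX2) was called lower. This block lost no call among the named genes and moved no other count by over 1.5 times. Leaving out 1 library at a time gave 7 members called higher each time, 0 to 1 activators and inhibitors lower, 0 to 2 transcription factors lower (LEF1 and RUNX2 without shCdGAP replicate 2) and 1 to 2 neighbours lower (AJUBA was lost without shCdGAP replicate 3). The causes were not tested. Depth limits MMP3 and MMP9, with at most 4 reads in any shCon library, and MMP2 and TIMP3, where 0 reads give only a limit.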
